A study of Homo sapiens with 16 samples.

Results

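The heterogeneous nuclear ribonucleoproteins (hnRNPs) and the serine/arginine-rich (SR) proteins are the 2 large families of RNA-binding proteins that guide splice site choice, and the abundance of their transcripts was followed here in 293T cells depleted of SETD2 or of hnRNP L. The set held 36 genes chosen by symbol, 22 of them hnRNP genes and 14 genes of SR proteins and the SR-like TRA2 proteins, out of 58884 genes in the expression table. HNRNPL itself, its paralog and the PTB proteins were not part of the set. All 36 symbols were found, each in 1 row, and all 36 genes were expressed highly enough to be tested, beside 16300 tested genes in all. The rule picks genes by name and family.

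The cells were wild-type 293T, a transformed human embryonic kidney line, and no group carried an engineered allele. They received a scramble siRNA pool, a pool targeting SETD2 or a pool targeting hnRNP L, and RNA was extracted after 72 h. SETD2 is the methyltransferase that trimethylates lysine 36 of histone H3 along transcribed genes, and hnRNP L is an RNA-binding splicing regulator that prefers CA-rich RNA. Each siRNA had 2 RNA-seq libraries, numbered 1 and 2 for scramble and hnRNP L siRNA and 2 and 3 for SETD2 siRNA. The study describes its replicates as independent and biological, and the tests measure the spread between these libraries. Depletion by siRNA was partial. HNRNPL transcript fell to 6.75% of its scramble mean in the hnRNP L siRNA libraries (fold change −3.85 on the log2(TPM + 0.5) scale used throughout, limma adjusted p = 8.48e-06), and SETD2 transcript fell to 36.5% in the SETD2 siRNA libraries (log2 fold change −1.36, limma adjusted p = 0.00603). The line markers KRT8, KRT18 and VIM were well expressed in all 6 libraries and PAX2 was low, at 1.65 to 2.79 TPM. PTPRC, the leukocyte marker, was listed at 0 in all 6, MYOD1, GFAP and ALB were below 1 TPM, and COL1A1 was at 2.83 to 5.17 TPM. Transcripts encoded by the mitochondrial genome took 17.5% of the TPM in scramble replicate 1 and between 6.70% and 10.9% in the other 5 libraries.

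As background, hnRNPs coat nascent transcripts and often act from silencer elements, whereas SR proteins bind exonic enhancers through RNA recognition motifs and recruit the spliceosome through a domain rich in arginine and serine. The balance between both families sets the inclusion of many alternative exons. Many of these proteins also control their own level: an excess of the protein promotes a splice form of its own transcript that carries a premature stop codon and is removed by nonsense-mediated decay.

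Decay forms were looked up in the annotation of the 36 genes, which does not show whether a protein controls its own level. At least 1 transcript classed as a target of nonsense-mediated decay was annotated for 28 of the 36 genes (77.8%), namely 14 of 14 SR and TRA2 genes and 14 of 22 hnRNP genes (63.6%), beside 6079 of 12802 tested protein-coding genes (47.5%). In 9 of the 36 genes, 8 of them SR or TRA2 genes, a cassette exon of a decay transcript was annotated within an intron of the reference transcript. Such an exon contains the stop codon of the decay transcript and is in no protein-coding transcript at the same coordinates. Other transcript types were not checked. In all, 15 such exons were found, with overlapping exons that differ at a boundary counted separately. The stretch from the first base of the exon to its stop codon is shown for 5 of these genes, because it ends in the stop codon that marks the decay form. For SRSF3 and SRSF7, which have more than 1 such exon, only 1 is shown. The letters are those of the coding strand in hg38, with exons and stops from GENCODE release 44, and the capitals mark the stop codon.
SRSF3, chr6:36599821-36599854 (plus strand, a 456-base exon in intron 3): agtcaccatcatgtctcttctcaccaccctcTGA
SRSF7, chr2:38749319-38749346 (minus strand, a 449-base exon in intron 3): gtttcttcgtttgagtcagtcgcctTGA
SRSF4, chr1:29166009-29166064 (minus strand, a 175-base exon in intron 1): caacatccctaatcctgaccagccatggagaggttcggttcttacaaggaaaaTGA
TRA2B, chr3:185931772-185931852 (minus strand, a 276-base exon in intron 1): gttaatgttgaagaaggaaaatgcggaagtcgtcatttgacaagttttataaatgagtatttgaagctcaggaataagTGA
HNRNPH1, chr5:179621951-179621976 (minus strand, a 134-base exon in intron 2): cgttggtaacggaaagcgacctgTAA
The expression values that follow are sums over all transcripts of a gene, coding and decay forms together. The gene-level table therefore cannot separate a shift between these forms from a change in their total.

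Expression was given as TPM, a measure of transcript abundance that corrects for transcript length and scales each library to the same total, so that levels can be compared between genes. Mean TPM over the 6 libraries ran from 9.55 for SRSF12 to 3300.3 for HNRNPA1, a 346-fold range, with a median of 223. The 36 genes together made up 1.62% and 1.63% of all TPM in the scramble libraries, 1.82% and 1.98% in the SETD2 siRNA libraries, and 1.61% and 1.73% in the hnRNP L siRNA libraries. Most of this was hnRNP transcript, at 13829 and 13826 TPM in the scramble libraries, 15651 and 17151 in the SETD2 siRNA libraries, and 13832 and 14917 in the hnRNP L siRNA libraries. The SR and TRA2 genes summed to 2387 and 2518 TPM with scramble siRNA, 2499 and 2653 with SETD2 siRNA, and 2245 and 2427 with hnRNP L siRNA. The summed hnRNP level was thus highest in both SETD2 siRNA libraries, whereas the summed SR and TRA2 level in the scramble libraries overlapped that of either depletion, with both SETD2 siRNA libraries above both hnRNP L siRNA libraries. Since TPM are relative, neither cell number nor RNA per cell can be read from these values. Each sum also depends on all other transcripts of its library. When TPM were rescaled without the mitochondrially encoded genes, the hnRNP sums were 16766 and 15005 with scramble siRNA and 16781 and 18383 with SETD2 siRNA, so that scramble replicate 1 lay just under the lower SETD2 siRNA library.

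**Figure D1:**
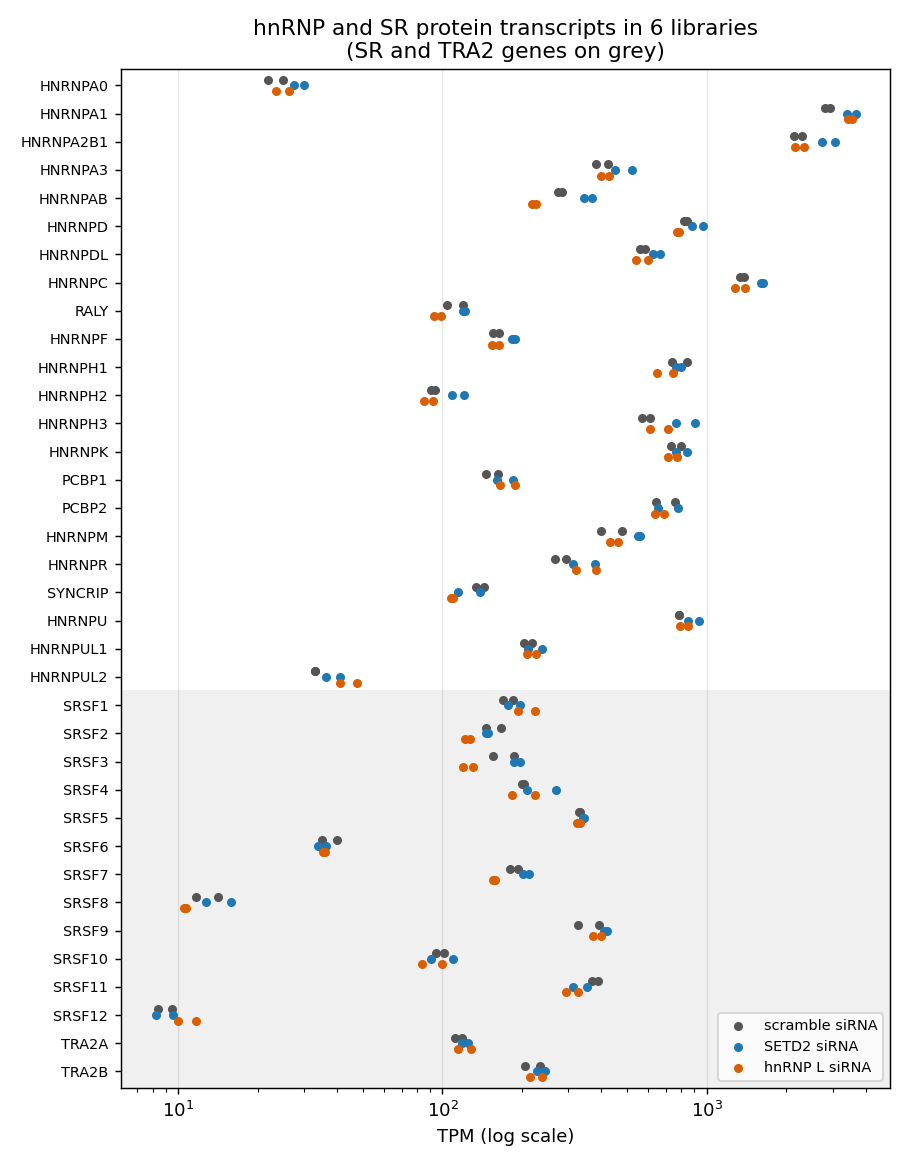
TPM of the 36 genes in each of the 6 libraries, on a log axis, with 1 point per library coloured by siRNA and SR and TRA2 genes on grey. The genes span a 346-fold range of mean TPM, from SRSF12 at 9.55 to HNRNPA1 at 3300.3, and for most genes the points of the 3 siRNAs lie close together.

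The first question was whether loss of hnRNP L changed the transcript levels of the other splicing regulators. No member passed both an adjusted p below 0.05 and a fold change above 1.5, the cut-off used for a call, beside 6.76% of all tested genes. With the adjusted p alone, 1 of 36 passed (2.78%), beside 11.2% of all tested genes: SRSF3, at 72.7% of its scramble mean, whose adjusted p was above 0.05 in several alternative fits. The members' median log2 fold change was −0.0053 and that of all tested genes was −0.084. The sign of the members' median was not stable, at 0.094 after median-ratio scaling, 0.017 without scramble replicate 2 and 0.056 without hnRNP L siRNA replicate 1. The 95% interval of the fold change lay within 1.5-fold in either direction for 31 of the 36 genes and within 2-fold for all 36. At an unadjusted p below 0.05 the counts were 9 of 36 members (25%) and 28.4% of all tested genes. Both hnRNP L siRNA libraries lay above both scramble libraries for 8 members (22.2%, beside 18.8% of all tested genes) and below both for 9 (25%, beside 37.8%). After median-ratio scaling these counts were 20 and 8 (beside 30.4% and 29.4%), after quantile normalization 8 and 12 (beside 29.2% each), and without the mitochondrially encoded genes 5 and 12 (beside 16.8% and 43.9%).

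The second question was whether loss of SETD2 did so. No member was called, beside 0.104% of all tested genes. None passed the adjusted p alone, where the share of all tested genes was also 0.104%. This test on TPM gave few calls in any genes, 17 in all and 60 when only protein-coding and lncRNA genes were tested. With a count-based test at the same cut-offs, the paper reported more genes changed by SETD2 depletion. At an unadjusted p below 0.05 there were 10 of 36 members (27.8%), all 10 of them hnRNP genes, beside 13.1% of all tested genes. The 95% interval lay within 1.5-fold for 32 of the 36 genes and within 2-fold for all 36. Both SETD2 siRNA libraries lay above both scramble libraries for 20 of the 36 members (55.6%), beside 22.9% of all tested genes, and below both for 1 member, SRSF11 (2.78%, beside 20.6%). Of the 20, 16 were among the 22 hnRNP genes and 4 among the 14 SR and TRA2 genes. The difference between the families was not tested. The median log2 fold change was 0.22 over the hnRNP genes, 0.079 over the SR and TRA2 genes, 0.16 over all 36 and 0.014 over all tested genes.

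The count of 20 depended on how the libraries were scaled. It was 23 after median-ratio scaling (beside 24% of all tested genes) and 10 after quantile normalization (beside 23.6%). It was also 10 when TPM were rescaled without the mitochondrially encoded genes (beside 14%). The counts of members lower in both SETD2 siRNA libraries were 1, 2 and 3 under the same scalings (beside 22.7%, 22.3% and 31.5%). The median over the 36 genes was 0.063 after quantile normalization and 0.060 without the mitochondrially encoded genes. It was 0.055 with the replicate number as a block in the fit of all 6 libraries. With 1 library left out it was 0.091 without SETD2 siRNA replicate 3, 0.097 without scramble replicate 1, 0.20 without scramble replicate 2 and 0.22 without SETD2 siRNA replicate 2.

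The third comparison set the depletions against each other, so its differences do not use the scramble libraries that both of the earlier comparisons share. The scramble libraries still entered the estimate of the spread. HNRNPAB and SRSF3 were called, both lower with hnRNP L siRNA than with SETD2 siRNA, which is 2 of 36 members (5.56%) beside 6.84% of all tested genes. SRSF7 passed the adjusted p as well without reaching 1.5-fold, giving 3 of 36 (8.33%) beside 10.8%. With the 2 groups alone in the fit, 6 members passed the adjusted p, beside 1687 of the 16300 tested genes. HNRNPM, HNRNPA2B1 and RALY were added there. The unadjusted p was below 0.05 for 13 members (36.1%), beside 28.5% of all tested genes. Both hnRNP L siRNA libraries lay below both SETD2 siRNA libraries for 21 members (58.3%, beside 41.2%) and above both for 1 member, SRSF12 (2.78%, beside 18.6%). The median log2 difference was −0.18 over the members and −0.099 over all tested genes. The members' median was −0.070 after median-ratio scaling, −0.064 with the replicate number as a block, −0.083 without SETD2 siRNA replicate 3 and −0.078 without hnRNP L siRNA replicate 1. Members lower in both hnRNP L siRNA libraries numbered 16 after median-ratio scaling (beside 30.8% of all tested genes), 18 after quantile normalization (beside 31.4%) and 20 without the mitochondrially encoded genes (beside 35.9%). Those higher numbered 7, 5 and 4 (beside 29.5%, 29% and 23.1%).

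**Figure D2:**
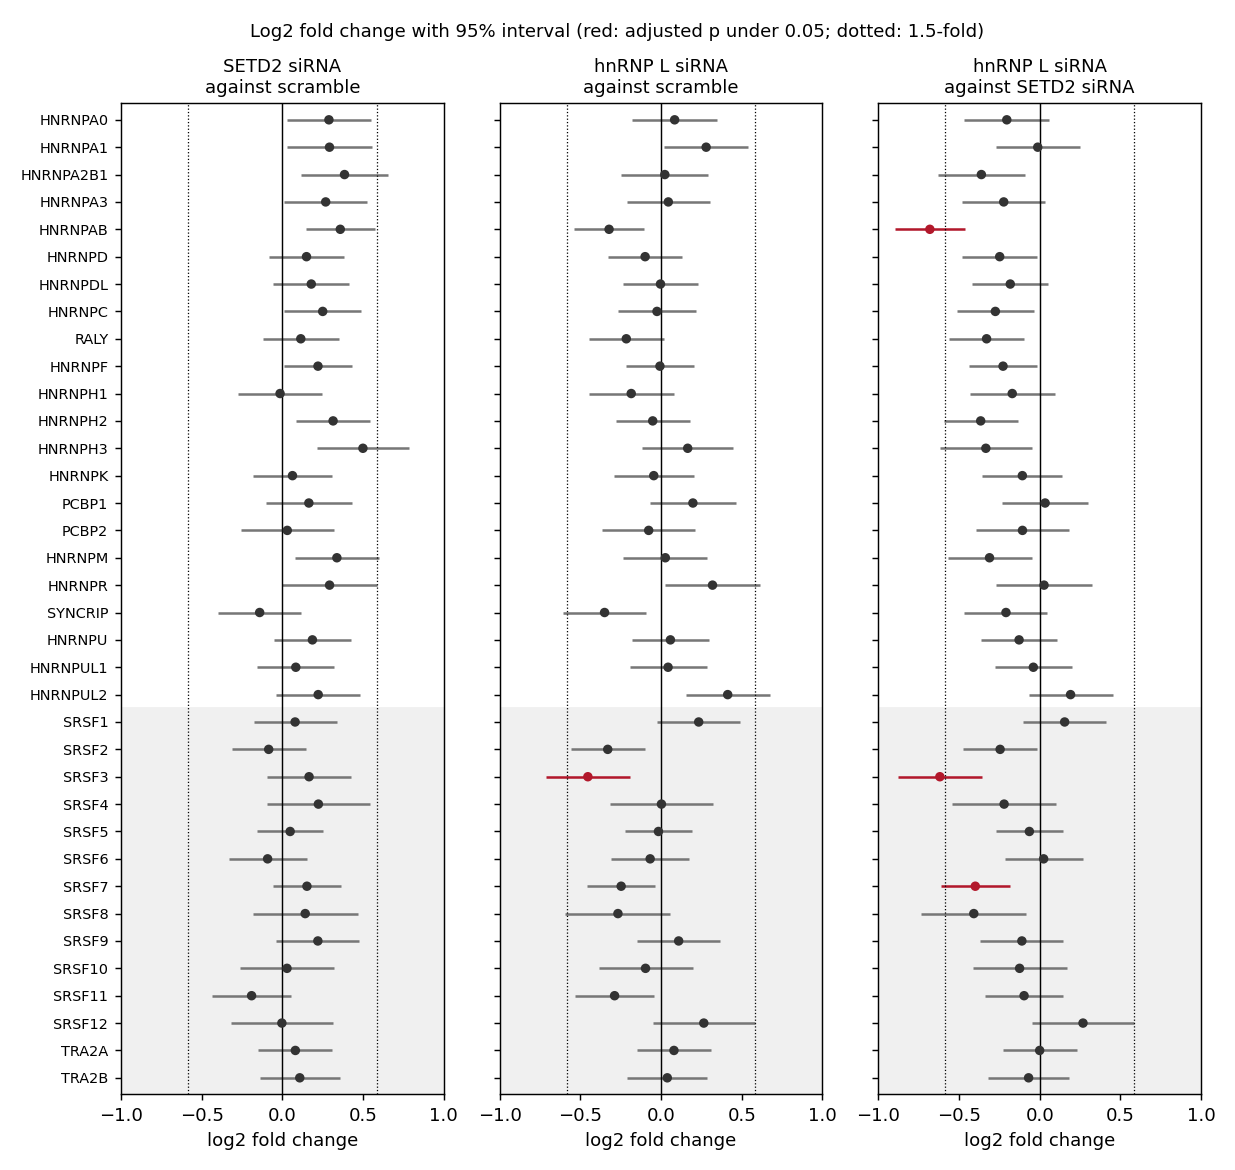
Log2 fold change of each of the 36 genes in the 3 comparisons, on the log2(TPM + 0.5) scale, with 95% intervals as horizontal bars (2 libraries per siRNA), dotted lines at 1.5-fold and genes of adjusted p below 0.05 in red. The red points are SRSF3 in the middle panel and HNRNPAB, SRSF3 and SRSF7 in the right panel.

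Among the SR proteins, SRSF3 and SRSF7 are close relatives that bind mature transcripts and help to export them from the nucleus. SRSF3 (ENSG00000112081, chr6:36594353-36605600 in hg38) was at 156 and 187 TPM with scramble siRNA, 197 and 186 with SETD2 siRNA and 130.3 and 119 with hnRNP L siRNA. Both hnRNP L siRNA libraries lay below all 4 other libraries. Its log2 fold change with hnRNP L siRNA was −0.45 (SE 0.115, 95% interval −0.71 to −0.19, limma adjusted p = 0.0393) against scramble siRNA and −0.62 (SE 0.115, 95% interval −0.88 to −0.36, limma adjusted p = 0.0144) against SETD2 siRNA, where it reached 65.1% of the SETD2 siRNA mean. Against scramble siRNA it was 0.16 with SETD2 siRNA (limma adjusted p = 0.560). The fall against scramble siRNA stood close to the threshold. The limma adjusted p was 0.0856 after median-ratio scaling, where the log2 fold change was −0.35, 0.0840 with the 2 groups alone, 0.0909 without the variance trend and 0.0929 with the replicate number as a block. It was also above 0.05 when scramble replicate 2 (0.0919), hnRNP L siRNA replicate 1 (0.164) or hnRNP L siRNA replicate 2 (0.215) was left out, and 0.338 when all 58884 genes were kept in the test. The difference from SETD2 siRNA had limma adjusted p between 0.0980 and 0.116 when 1 of the 4 libraries compared was left out and 0.168 with the block in the fit of all 6 libraries, and it was −0.51 after median-ratio scaling, which is under 1.5-fold.

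SRSF7 (ENSG00000115875, chr2:38743599-38751494) was at 180.2 and 193 TPM with scramble siRNA, 212 and 202 with SETD2 siRNA and 155 and 159 with hnRNP L siRNA. As with SRSF3, the hnRNP L siRNA libraries were the lowest pair, here with a narrow spread within each siRNA. The log2 difference of SRSF7 was −0.40 against SETD2 siRNA (SE 0.0935, 95% interval −0.61 to −0.19, limma adjusted p = 0.0311) and −0.25 against scramble siRNA (limma adjusted p = 0.123). The former no longer passed with 1 of the 4 libraries left out, at log2 differences between −0.43 and −0.36. Its limma adjusted p was 0.265 with the block, 0.0805 without the variance trend and 0.143 with no filter on low values. After median-ratio scaling the log2 difference was −0.29 (limma adjusted p = 0.0698). Only 1 of the annotated decay exons of each gene is shown above, and the values hold no exon-level reading.

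SRSF2, which binds exonic enhancers and stays largely in the nucleus, was at 146 and 167 TPM with scramble siRNA, 146 and 149 with SETD2 siRNA and 127 and 121 with hnRNP L siRNA. Its hnRNP L siRNA libraries lay below the other 4, with a log2 fold change of −0.33 against scramble siRNA that did not pass (limma adjusted p = 0.0699). SRSF8, a close relative of SRSF2, was among the least expressed members, at 11.7 and 14.1 TPM with scramble siRNA, 12.7 and 15.9 with SETD2 siRNA and 10.5 and 10.7 with hnRNP L siRNA. The hnRNP L siRNA pair was again the lowest, although the scramble values lay apart and the 95% interval was wide, from −0.59 to 0.06 on the log2 scale.

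SRSF1, the founding SR protein and an enhancer-binding activator, was at 185 and 169 TPM with scramble siRNA, 177 and 197 with SETD2 siRNA and 193 and 224 with hnRNP L siRNA. The hnRNP L siRNA libraries lay above both scramble libraries, with a log2 fold change of 0.23 (limma adjusted p = 0.214). The protein-coding gene AC015813.2 overlaps SRSF1 on the same strand, and it is named here after its values were seen. It was at 47.8 and 41.6 TPM with scramble siRNA, 22.6 and 22.4 with SETD2 siRNA and 63.5 and 54.7 with hnRNP L siRNA. How reads were divided between SRSF1 and AC015813.2 cannot be read from these values. SRSF9, a smaller relative of SRSF1 and the most abundant SR gene here, was at 326 and 389.9 TPM with scramble siRNA, 410.3 and 421 with SETD2 siRNA and 370.2 and 399.9 with hnRNP L siRNA. Its SETD2 siRNA libraries were the highest pair, at a log2 fold change of 0.22 against scramble siRNA (limma adjusted p = 0.436).

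SRSF4, an SR protein with a long arginine- and serine-rich domain, was at 200.3 and 204 TPM with scramble siRNA, 208 and 268 with SETD2 siRNA and 184 and 223 with hnRNP L siRNA. SRSF5 was at 333 and 328 TPM with scramble siRNA, 343 and 340.4 with SETD2 siRNA and 322 and 331 with hnRNP L siRNA. SRSF6, a relative of both SRSF4 and SRSF5, was at 34.9 and 39.8 TPM with scramble siRNA, 36.1 and 33.9 with SETD2 siRNA and 35.8 and 35.3 with hnRNP L siRNA. SRSF5 was the steadiest, with 6 values between 322 and 343 TPM, whereas the second SETD2 siRNA value of SRSF4 stood above the rest.

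SRSF10 acts as a splicing repressor once it loses its phosphates, and SRSF12 is its close relative. SRSF10 was at 101 and 94.1 TPM with scramble siRNA, 90.4 and 109.7 with SETD2 siRNA and 83.8 and 99.5 with hnRNP L siRNA, and its groups overlapped. SRSF12 was at 8.37 and 9.46 TPM with scramble siRNA, 8.23 and 9.57 with SETD2 siRNA and 9.96 and 11.7 with hnRNP L siRNA. Both hnRNP L siRNA values of SRSF12 were above the other 4, at a log2 fold change of 0.26 against scramble siRNA (95% interval −0.05 to 0.58, limma adjusted p = 0.248). SRSF11, a larger member with an arginine- and serine-rich domain, was at 387 and 369 TPM with scramble siRNA, 312 and 351 with SETD2 siRNA and 294 and 326 with hnRNP L siRNA. It was lower than both scramble libraries in all 4 depleted libraries, by 0.29 on the log2 scale with hnRNP L siRNA (limma adjusted p = 0.117) and by 0.19 with SETD2 siRNA (limma adjusted p = 0.466), values that share the same scramble libraries.

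TRA2A and TRA2B are SR-like activators that bind GAA-rich exonic enhancers. TRA2A was at 111 and 119 TPM with scramble siRNA, 118 and 124 with SETD2 siRNA and 115 and 129 with hnRNP L siRNA. TRA2B was at 205 and 235 TPM with scramble siRNA, 228 and 245 with SETD2 siRNA and 214 and 238 with hnRNP L siRNA. The groups of both genes overlapped in all 3 comparisons, and each 95% interval lay within 1.5-fold.

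**Figure D3:**
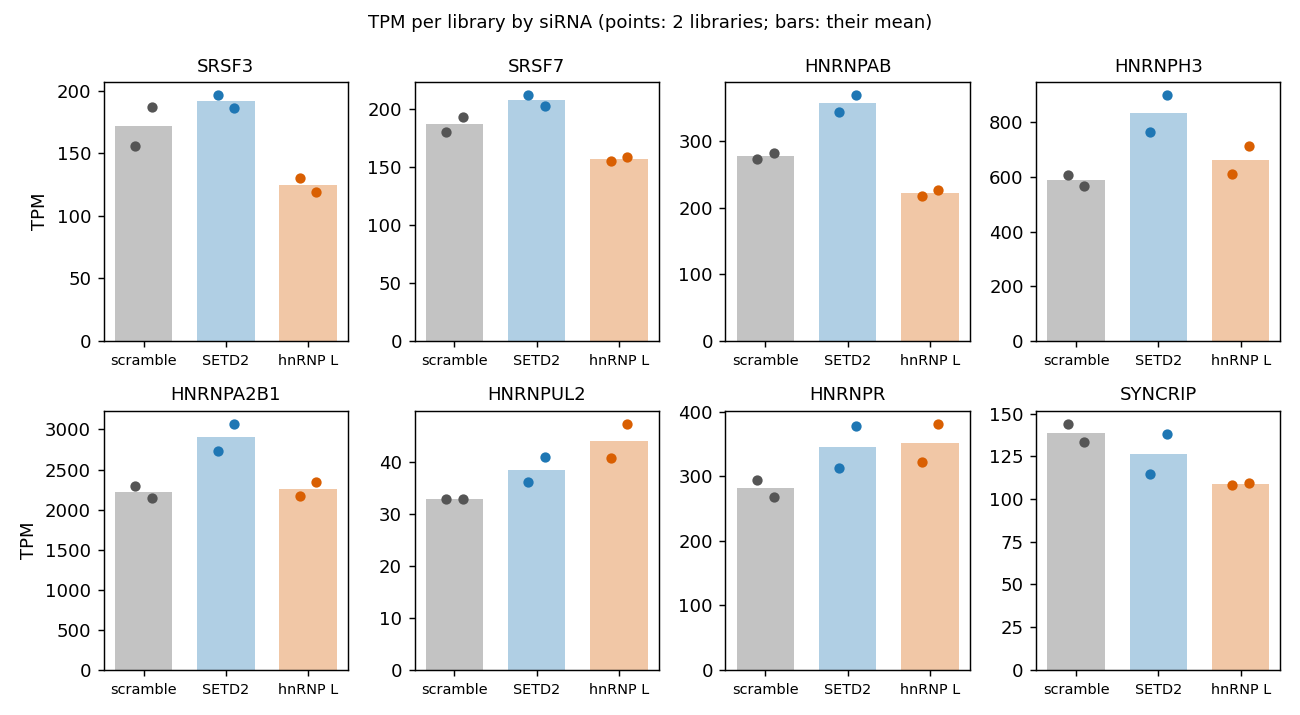
TPM per library for 8 of the genes, with 1 point per library, bars at the mean of 2 libraries and axes that start at 0. The hnRNP L siRNA points of SRSF3, SRSF7, HNRNPAB and SYNCRIP lie below those of the other siRNAs, and the SETD2 siRNA points of HNRNPH3 and HNRNPA2B1 lie above them.

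The A/B type hnRNPs carry paired RNA recognition motifs and include the core splicing repressors. HNRNPAB, an A/B type protein that binds both RNA and single-stranded DNA, had the smallest adjusted p of the 36 genes in any comparison. HNRNPAB (ENSG00000197451, chr5:178204533-178211163) was at 273 and 282 TPM with scramble siRNA, 343 and 369 with SETD2 siRNA and 218 and 226 with hnRNP L siRNA. The 3 groups did not overlap, with SETD2 siRNA highest and hnRNP L siRNA lowest. The log2 difference between hnRNP L siRNA and SETD2 siRNA was −0.68 (SE 0.0948, 95% interval −0.90 to −0.47, limma adjusted p = 0.00553), so that HNRNPAB stood at 62.3% of its SETD2 siRNA mean. Neither depletion differed from scramble siRNA at the threshold: the log2 fold change was −0.32 with hnRNP L siRNA (SE 0.0948, limma adjusted p = 0.0621) and 0.36 with SETD2 siRNA (SE 0.0948, limma adjusted p = 0.213). The call between the depletions was lost whenever 1 of their 4 libraries was left out, with log2 differences between −0.73 and −0.63. It was also lost with the replicate number as a block in the fit of all 6 libraries (limma adjusted p = 0.137). The same held after median-ratio scaling, where the log2 difference was −0.57, under 1.5-fold, and with no filter on low values (limma adjusted p = 0.0765).

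HNRNPA1, which binds exonic and intronic silencers and was the most abundant member, was at 2820.0 and 2939 TPM with scramble siRNA, 3389 and 3664 with SETD2 siRNA and 3423 and 3566 with hnRNP L siRNA. All 4 depleted libraries lay above both scramble libraries, at log2 fold changes of 0.28 with hnRNP L siRNA (limma adjusted p = 0.152) and 0.29 with SETD2 siRNA (limma adjusted p = 0.334). HNRNPA1 has 75 named pseudogenes in the table, with a summed mean of 116 TPM, among which its reads could be split. HNRNPA2B1, a close relative, was at 2289.9 and 2147 TPM with scramble siRNA, 2726 and 3074 with SETD2 siRNA and 2165.99 and 2344 with hnRNP L siRNA. Here only the SETD2 siRNA libraries were higher than scramble, at a log2 fold change of 0.38 (95% interval 0.11 to 0.66, limma adjusted p = 0.251).

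HNRNPA3 was at 424 and 379.8 TPM with scramble siRNA, 449 and 520.4 with SETD2 siRNA and 399.8 and 429 with hnRNP L siRNA. HNRNPA0, an intronless A/B type gene and the least expressed of its class, was at 21.9 and 25.0 TPM with scramble siRNA, 27.5 and 29.8 with SETD2 siRNA and 23.5 and 26.1 with hnRNP L siRNA. Both had their highest pair with SETD2 siRNA, at log2 fold changes of 0.27 and 0.29.

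HNRNPD, also known as AUF1, binds AU-rich elements and promotes the decay of short-lived transcripts, and HNRNPDL is its neighbour on chromosome 4 and its close relative. HNRNPD was at 823 and 846 TPM with scramble siRNA, 882 and 971 with SETD2 siRNA and 771 and 787 with hnRNP L siRNA. HNRNPDL was at 559.6 and 583 TPM with scramble siRNA, 627 and 666 with SETD2 siRNA and 540.1 and 601 with hnRNP L siRNA. With SETD2 siRNA both were above both scramble libraries, as were all 7 A/B type genes on the deposited scale (beside 22.9% of all tested genes), where their median log2 fold change was 0.29. After median-ratio scaling the count was 7 (beside 24% of all tested genes). It was 4 after quantile normalization (beside 23.6%) and 4 without the mitochondrially encoded genes (beside 14%). None of the 7 passed the adjusted p against scramble siRNA in either depletion.

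HNRNPC forms the tetramer that packages nascent transcripts through uridine tracts, and RALY is its less abundant relative. HNRNPC was at 1343 and 1383 TPM with scramble siRNA, 1610.5 and 1631 with SETD2 siRNA and 1281 and 1401 with hnRNP L siRNA. RALY was at 104 and 119.13 TPM with scramble siRNA, 119.36 and 121 with SETD2 siRNA and 92.9 and 98.5 with hnRNP L siRNA. In both genes the SETD2 siRNA libraries were the highest pair, in RALY only by a very narrow margin over scramble replicate 2. RALY was lowest with hnRNP L siRNA (log2 fold change −0.22 against scramble siRNA, limma adjusted p = 0.208).

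The H/F type hnRNPs recognise runs of guanosines. HNRNPH3 had the largest change of any member with SETD2 siRNA. HNRNPH3 was at 609 and 567 TPM with scramble siRNA, 765 and 902 with SETD2 siRNA and 609.7 and 712 with hnRNP L siRNA. The SETD2 siRNA libraries were 141.7% of the scramble mean and above the other 4 libraries, but they lay apart from each other, and the log2 fold change of 0.50 (SE 0.125, 95% interval 0.22 to 0.78) did not pass (limma adjusted p = 0.197). HNRNPH1, which carries the decay exon shown above, was at 843 and 741 TPM with scramble siRNA, 767 and 798 with SETD2 siRNA and 650.0 and 744 with hnRNP L siRNA. Its siRNA groups overlapped in both comparisons with scramble siRNA.

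HNRNPH2, an X-linked relative of HNRNPH1, was at 93.3 and 90.5 TPM with scramble siRNA, 108 and 121 with SETD2 siRNA and 85.3 and 92.2 with hnRNP L siRNA. HNRNPF was at 156 and 164 TPM with scramble siRNA, 183 and 189 with SETD2 siRNA and 154 and 164 with hnRNP L siRNA. Both were highest in the SETD2 siRNA libraries, and HNRNPH2 came near the threshold between the depletions (log2 difference −0.37, limma adjusted p = 0.0521).

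HNRNPK, PCBP1 and PCBP2 bind stretches of cytidines through KH domains, and none passed the adjusted p in any comparison. HNRNPK was at 734 and 801 TPM with scramble siRNA, 763 and 840.3 with SETD2 siRNA and 713 and 774 with hnRNP L siRNA. PCBP1, an intronless gene, was at 146 and 162 TPM with scramble siRNA, 161 and 185 with SETD2 siRNA and 165 and 188 with hnRNP L siRNA. PCBP2 was at 645 and 759 TPM with scramble siRNA, 656 and 779 with SETD2 siRNA and 639 and 689 with hnRNP L siRNA. The scramble and SETD2 siRNA values overlapped in all 3 genes, and PCBP1 alone had both hnRNP L siRNA libraries above scramble (log2 fold change 0.20, limma adjusted p = 0.307).

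HNRNPM, which binds GU-rich RNA, was at 480.4 and 399 TPM with scramble siRNA, 548 and 558 with SETD2 siRNA and 432 and 460.1 with hnRNP L siRNA. The SETD2 siRNA pair was tight and above the other 4 libraries, at a log2 fold change of 0.34 (limma adjusted p = 0.277). HNRNPR and SYNCRIP, also called hnRNP Q, are close relatives with several RNA recognition motifs. HNRNPR was at 295 and 267 TPM with scramble siRNA, 313 and 377 with SETD2 siRNA and 321 and 382 with hnRNP L siRNA. SYNCRIP was at 144 and 133 TPM with scramble siRNA, 114 and 138 with SETD2 siRNA and 108 and 109 with hnRNP L siRNA. The genes moved in opposite directions with hnRNP L siRNA, HNRNPR by 0.32 (limma adjusted p = 0.148) and SYNCRIP by −0.35 (limma adjusted p = 0.0817) on the log2 scale, neither past the threshold.

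HNRNPU, a scaffold attachment factor that binds chromatin and RNA, was at 789 and 785 TPM with scramble siRNA, 853 and 939.5 with SETD2 siRNA and 790.0 and 849.7 with hnRNP L siRNA. HNRNPUL1, a related protein, was at 204 and 219 TPM with scramble siRNA, 210.4 and 238 with SETD2 siRNA and 209 and 227 with hnRNP L siRNA. HNRNPUL2 was at 32.8 and 32.9 TPM with scramble siRNA, 36.1 and 40.9 with SETD2 siRNA and 40.8 and 47.3 with hnRNP L siRNA. HNRNPUL2 had the largest positive fold change of any member with hnRNP L siRNA, at 0.41 on the log2 scale (SE 0.114, 95% interval 0.15 to 0.67), just short of the threshold (limma adjusted p = 0.0519). It shares its strand with the read-through gene HNRNPUL2-BSCL2, which was at 26.4 and 28.4 TPM with scramble siRNA and at 32.7 and 33.4 TPM with hnRNP L siRNA. HNRNPUL2 is 1 of 12 members that overlap another annotated gene on their strand.

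A factor common to all genes of a library leaves the ratio of 2 genes within it nearly unchanged. In this way 14 pairs of relatives were compared, as the difference of their log2(TPM + 0.5), without a test. The groups did not overlap for 9 of the 14 pairs in hnRNP L siRNA against scramble siRNA. This held for 8 pairs in SETD2 siRNA against scramble siRNA and for 10 between the depletions. Pairs of other genes were not compared, so groups that stand apart have no background here. The log2 ratio of HNRNPR to SYNCRIP was 1.03 and 1.00 with scramble siRNA, 1.45 and 1.45 with SETD2 siRNA, and 1.57 and 1.80 with hnRNP L siRNA. It was the pair that moved furthest from scramble siRNA in either depletion, by 0.67 with hnRNP L siRNA and 0.43 with SETD2 siRNA, both set against the same scramble libraries, and the 3 groups did not overlap. The log2 ratio of HNRNPUL1 to HNRNPUL2 was 2.62 and 2.71, then 2.53 and 2.53, then 2.35 and 2.25 in the same order, so the 3 groups again stood apart.

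The log2 ratio of HNRNPA1 to HNRNPA2B1 was 0.30 and 0.45 with scramble siRNA, 0.31 and 0.25 with SETD2 siRNA, and 0.66 and 0.61 with hnRNP L siRNA. For SRSF10 to SRSF12 it was 3.52 and 3.25, then 3.38 and 3.45, then 3.01 and 3.04. In both pairs the hnRNP L siRNA libraries stood apart from the other 4, and SRSF10 to SRSF12 was the pair with the largest difference between the depletions, −0.39. For PCBP1 to PCBP2 the ratios were −2.14 and −2.22, then −2.03 and −2.07, then −1.95 and −1.87, and the 3 groups did not overlap. SRSF3 to SRSF7 stood at −0.21 and −0.04, then −0.11 and −0.12, then −0.25 and −0.41, so the hnRNP L siRNA libraries were the lowest, 1 of them only narrowly. The ratio of TRA2A to TRA2B was the most even of the 14, with all 6 libraries within 0.095 on the log2 scale.

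**Figure D4:**
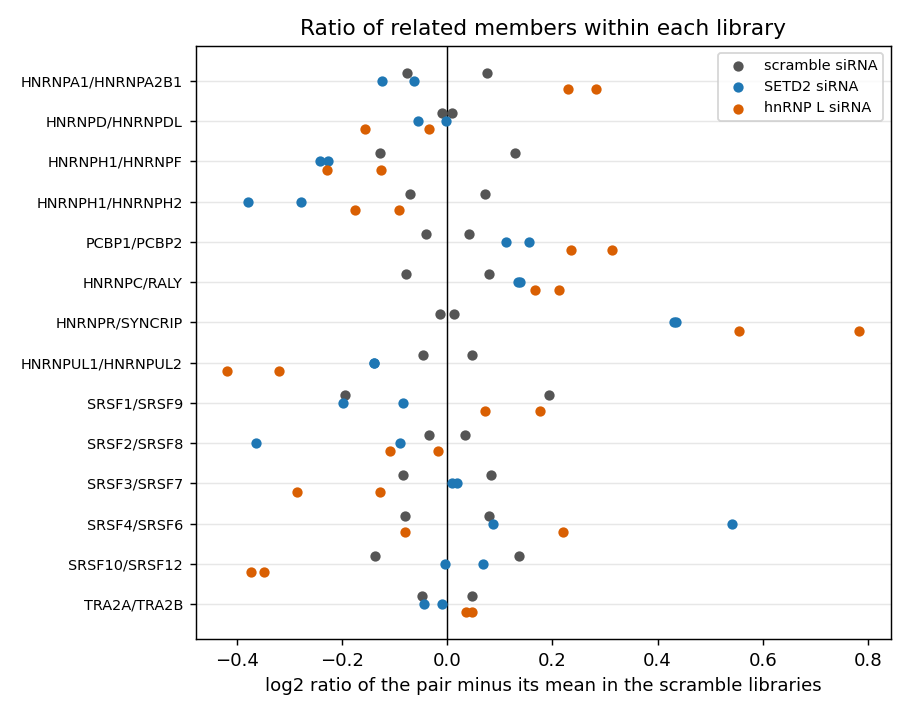
Log2 ratio of 14 pairs of related genes in each library, minus the mean of that ratio in the scramble libraries, with 1 point per library coloured by siRNA. HNRNPR/SYNCRIP lies furthest to the right with both depletions, by 0.43 with SETD2 siRNA and 0.67 with hnRNP L siRNA, and TRA2A/TRA2B stays within 0.095.

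A list of 48 genes gave a setting for these values, made up of other splicing regulators together with TNPO1, TNPO3 and PRMT1. Of its rows, 47 were tested. With hnRNP L siRNA against scramble siRNA, 0 rose and 4 fell at the adjusted p (8.51%, beside 11.2% of all tested genes), of which DAZAP1 and ARGLU1 also passed 1.5-fold. DAZAP1, an RNA-binding splicing regulator, was at 237.5 and 273.6 TPM with scramble siRNA, 254 and 291 with SETD2 siRNA, and 120.3 and 143 with hnRNP L siRNA (log2 fold change −0.96, limma adjusted p = 0.00455). ARGLU1, an arginine- and glutamate-rich splicing factor, was at 54.7 and 53.0 TPM with scramble siRNA, 48.2 and 44.9 with SETD2 siRNA, and 33.7 and 36.9 with hnRNP L siRNA (log2 fold change −0.60, limma adjusted p = 0.0102). The other 2 that fell were LUC7L and SON. With SETD2 siRNA against scramble siRNA, 0 of the 47 passed by limma, and 3 had an unadjusted p below 0.05 (13.1% of all tested genes did). Between the depletions 0 were higher and 7 lower with hnRNP L siRNA (14.9%, beside 10.8%), of which DAZAP1 alone passed 1.5-fold (log2 difference −1.05, limma adjusted p = 0.00335).

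**Figure D5:**
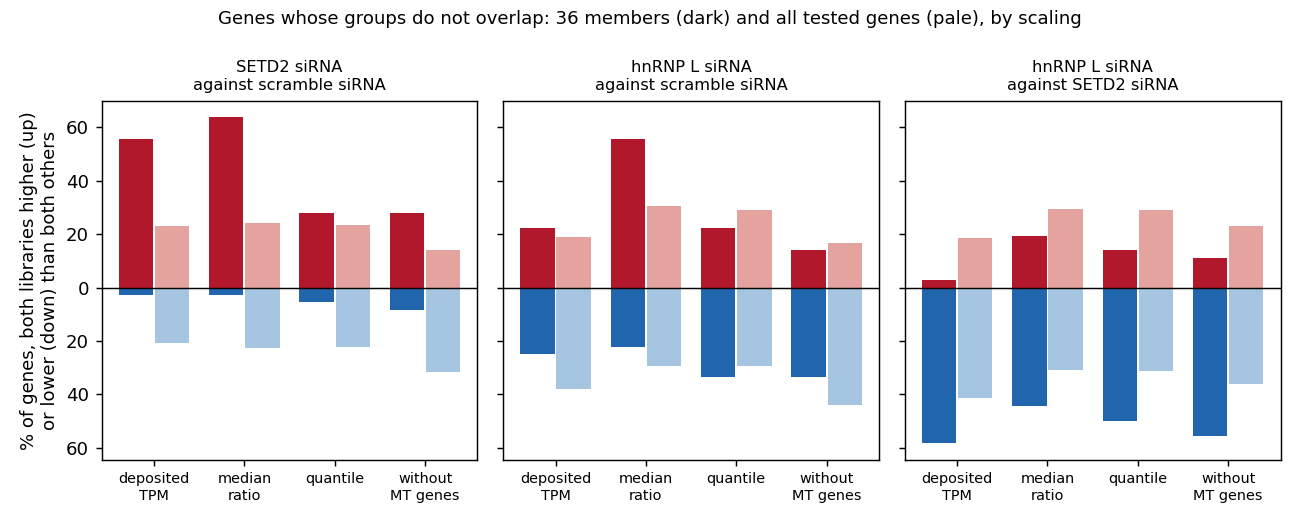
Percent of genes for which both libraries of one siRNA lay above (red, up) or below (blue, down) both libraries of the other, for the 36 genes (dark bars) and all 16300 tested genes (pale bars), under 4 scalings of the libraries in each of the 3 comparisons. In the left panel the dark upper bar is at 55.6% on the deposited scale, 20 genes (beside 22.9% of all tested genes). It is at 23 genes after median-ratio scaling (beside 24%). It is at 10 genes after quantile normalization (beside 23.6%) and at 10 without the mitochondrially encoded genes (beside 14%).

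The members also differed together between libraries of the same siRNA. SETD2 siRNA replicate 3 was higher than replicate 2 for 32 of the 36 genes, beside 65.5% of all tested genes, and hnRNP L siRNA replicate 2 was higher than replicate 1 for 33 of 36, beside 66.0%. Between the scramble libraries, replicate 2 was higher for 23 of 36, beside 58.9%. The part of these shared shifts in the comparisons was not tested.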

How the data were processed

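The 6 RNA-seq libraries of wild-type 293T cells, taken 72 h after siRNA, were analysed. The 10 ChIP-seq samples were not used here. Groups and replicate numbers came from the sample labels. Per the methods and the submitters' processing notes, reads were converted with bcl2fastq 2.18 and aligned to hg38 with STAR 2.6.1c and the gene models of Ensembl release 96, after which the authors estimated gene-level TPM with RSEM 1.3.0, and these TPM are the deposited values. The RNA was ribodepleted and polyA-enriched. The authors tested differential expression with edgeR, which needs counts. TPM keep no counts, so the sequencing depth behind each value is unknown, no counting error can be given, and a gene's share depends on all other genes of its library.

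A pseudocount of 0.5 was added to each TPM before taking log2, so fold changes of weakly expressed genes come out too small. The filter required an average of 0.5 TPM across the libraries and left 16300 of 58884 genes for limma 3.58.1 in R 4.3.3, with a variance trend and 1 mean per siRNA in a single fit (prior degrees of freedom 5.74), two-sided, and Benjamini-Hochberg adjustment over all tested genes. A call needed an adjusted p below 0.05 and a fold change above 1.5. Intervals are 95% and not adjusted for the number of genes. The fit was tested on simulated data, in which the planted changes were larger than any change of the members. That test does not show how often changes of the members' size would be found.

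The members, the list of other splicing regulators and related genes and the pairs of relatives were chosen with earlier results of these data known. Values per library were to be given for members past the adjusted p, for the highest and lowest gene of each class and for the listed pairs, and are given here for every member. From the list of regulators, called genes were named. Decay transcripts and exons were read from GENCODE release 44 on hg38, the build of the files. No protein sequences were used here.

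The same tests were repeated with a pseudocount of 1, other filters, protein-coding and lncRNA genes only (412 genes of the table had no biotype), median-ratio and quantile scaling, without the 37 mitochondrially encoded genes, with the 2 groups alone, without the variance trend, with each library left out, and with the replicate number as a block.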

Additional observations from a re-analysis of the deposited data

How the results depend on the processing

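The log2 fold changes of SRSF3, SRSF7 and HNRNPAB in the comparisons where they passed kept their direction in every alternative, whereas the members' median in hnRNP L siRNA against scramble siRNA changed sign. The count of members called in hnRNP L siRNA against scramble siRNA was 0, ranged from 0 to 1 with 1 library left out (SRSF3 without scramble replicate 1), and was 1 with the adjusted p alone. Between the depletions the count of 2 became 0 with no filter on low values, after median-ratio scaling and at a fold change above 2, and 1 (HNRNPAB) after quantile normalization and without the mitochondrially encoded genes. It ranged from 0 to 0 with 1 library left out, which leaves a lone library assumed to vary like the others. In SETD2 siRNA against scramble siRNA the count stayed at 0 in every alternative. With the adjusted p alone, hnRNP L siRNA against scramble siRNA gave between 0 and 5 members, with 5 when only protein-coding and lncRNA genes were tested (SRSF3, SYNCRIP, SRSF2, HNRNPAB and HNRNPUL2) and 5 without the mitochondrially encoded genes (SRSF3, SRSF7, RALY, SRSF2 and HNRNPAB). The members' median in that comparison was −0.0053, and 0.094 after median-ratio scaling. Depth is unknown for TPM, so the precision rests on 2 libraries per siRNA. The cause of these differences was not tested.

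The replicate numbers of scramble and hnRNP L siRNA were also fitted as a block. Deviations of same-numbered libraries correlated at −0.13 over 16300 genes, and what the numbers mark is not stated, so no pairing was assumed. With the block the count of members called was 0 and SRSF3 had a limma adjusted p of 0.0929. With the numbers crossed, a pairing added after seeing the data, 0 members were called and 1 passed the adjusted p. A block of 3 levels in the fit of all 6 libraries, also added after seeing the data, left 1 residual degree of freedom and gave 0 members called in each of the 3 comparisons, also between the depletions, where the count without the block was 2.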

Other observations

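Genes that overlap a member on its strand were not part of the set, and the values of some are given here after they were seen. AC015813.2, which overlaps SRSF1 on the same strand, was lower with SETD2 siRNA than with scramble siRNA by limma (log2 fold change −0.97, SE 0.116, adjusted p = 0.0216) and higher with hnRNP L siRNA than with SETD2 siRNA (log2 difference 1.37, limma adjusted p = 0.000948). Added to SRSF1, it gave 233 and 211 TPM with scramble siRNA, 199.9 and 219 with SETD2 siRNA, and 257 and 279 with hnRNP L siRNA, so the sum with SETD2 siRNA overlapped that with scramble siRNA and the sum with hnRNP L siRNA lay above both.

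RPL36A-HNRNPH2, which joins a ribosomal protein gene to HNRNPH2, was at 4.61 and 5.21 TPM with scramble siRNA, 9.23 and 8.56 with SETD2 siRNA, and 7.39 and 6.72 with hnRNP L siRNA. Its log2 fold change against scramble siRNA was 0.80 with SETD2 siRNA (limma adjusted p = 0.0851) and 0.48 with hnRNP L siRNA (limma adjusted p = 0.0486), against the same scramble libraries. HNRNPUL2-BSCL2 had log2 fold changes of 0.17 with SETD2 siRNA and 0.27 with hnRNP L siRNA (limma adjusted p = 0.484 and 0.121).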
